A study of Mus musculus with 60 samples.

Results

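The 9 genes described here encode subunits of activator protein 1 (AP-1) or its close dimer partners: the FOS family genes Fos, Fosb, Fosl1 and Fosl2, the JUN family genes Jun, Junb and Jund, and the related basic leucine zipper genes Atf3 and Maff. They were taken from the array's probe annotation by symbol, and where a gene had several probe sets the one brightest on average stood for it. The array gave values for 18194 genes in all. Of these 9 genes 8 passed the intensity filter that left 14513 genes for testing; Fosb did not, on any of 60 arrays. They were followed in primary hepatocytes of male C57BL/6N mice of 8 to 12 weeks, which had been plated on collagen, left to attach for 4 h and kept without serum but with 100 nM dexamethasone for 24 h. The cells then received 40 ng/ml recombinant mouse hepatocyte growth factor (HGF), 40 ng/ml recombinant human interleukin 6 (IL-6), both together, or nothing. RNA was taken from unstimulated cells at 0 h (4 arrays) and from all 4 arms (2 arrays per group) at 7 later times, which were 0.5 h, 2 h and 4 h, then 8 h, 16 h, 24 h and 32 h. Each experiment used cells of a single animal or of a pool of up to 3, and which arrays stem from different animals is not labelled. The p-values therefore rest on array-to-array spread that may be technical.

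AP-1 is a dimer of basic leucine zipper proteins that binds short palindromic DNA elements. FOS proteins do not form homodimers and need a JUN partner, whereas JUN proteins can pair with each other, and ATF3 and the small MAF proteins pair with several of them, so the dimers a cell can form depend on which subunits it makes and when. Several of the genes are immediate early genes, transcribed within minutes of a growth factor or cytokine signal and without new protein synthesis. In the liver AP-1 genes are known for their induction at the onset of regeneration, in which HGF, acting through the receptor MET and the ERK pathway, and IL-6, acting through gp130 and STAT3, both take part.

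Promoter sequences are shown because the genes differed in the stimulus they followed. RefSeq windows from 250 bases before to 50 bases after the start site (build GRCm38.p6) were found for 8 of the 9 genes, with 3 windows for Maff. The 250 bases before the start site are shown for 5 genes. Of these, Fos and Atf3 had a peak at 0.5 h, Maff was higher early under HGF, and Junb and Fosl2 were higher under IL-6. Capitals mark matches, on either strand, to 1 of 4 motifs searched in the whole window: the AP-1 element TGANTCA, the full cyclic AMP response element TGACGTCA, its shorter form TGACGT, which the full form contains, and the STAT-type element TTCNNNGAA.

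Fos, chr12:85473640-85473889, plus strand: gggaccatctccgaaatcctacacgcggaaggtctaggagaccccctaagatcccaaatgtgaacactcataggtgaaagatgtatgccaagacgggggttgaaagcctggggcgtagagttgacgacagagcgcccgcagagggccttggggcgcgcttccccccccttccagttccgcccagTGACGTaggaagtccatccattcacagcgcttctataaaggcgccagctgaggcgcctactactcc
Atf3, chr1:191183334-191183583, minus strand: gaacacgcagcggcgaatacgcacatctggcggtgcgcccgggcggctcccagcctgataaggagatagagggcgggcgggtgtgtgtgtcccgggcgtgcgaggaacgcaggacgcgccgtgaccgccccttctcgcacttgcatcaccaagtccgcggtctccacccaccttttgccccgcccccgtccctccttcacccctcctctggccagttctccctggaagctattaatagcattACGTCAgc
Maff, chr15:79347270-79347519, plus strand: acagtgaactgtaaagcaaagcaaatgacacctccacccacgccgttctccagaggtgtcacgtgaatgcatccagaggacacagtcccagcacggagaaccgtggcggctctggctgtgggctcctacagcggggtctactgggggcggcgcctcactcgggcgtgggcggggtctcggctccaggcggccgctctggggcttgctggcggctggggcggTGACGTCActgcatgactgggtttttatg
Junb, chr8:84978749-84978998, minus strand: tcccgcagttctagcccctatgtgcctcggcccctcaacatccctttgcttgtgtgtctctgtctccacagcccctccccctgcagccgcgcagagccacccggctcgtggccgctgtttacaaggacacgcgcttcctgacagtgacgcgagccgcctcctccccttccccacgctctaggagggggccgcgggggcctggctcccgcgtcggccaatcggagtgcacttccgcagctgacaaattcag
Fosl2, chr5:32136222-32136471, plus strand: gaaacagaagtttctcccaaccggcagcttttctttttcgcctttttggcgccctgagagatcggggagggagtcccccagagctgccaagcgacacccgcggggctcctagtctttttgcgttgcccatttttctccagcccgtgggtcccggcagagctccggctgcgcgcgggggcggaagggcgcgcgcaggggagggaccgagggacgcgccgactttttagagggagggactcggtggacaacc

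The short cyclic AMP element began 66 bases before the start site of Fos and, as its reverse complement, 8 bases before that of Atf3. The Maff window held the full element 29 bases before the start site and, beyond the printed bases, a STAT-type match at base 28 after it. No match to any of the 4 motifs was found in the windows of Fosb, Fosl2, Jun, Junb and Jund or in the other 2 Maff windows, which says only that these letters are not in these 300 bases. Jun, which is not printed, was also higher at 0.5 h under HGF (0.66). The printed genes include all those with a match, and a link between motif and response was not tested. Among all 32851 RefSeq windows of that length, 7.81% held TGANTCA, 1.79% TGACGTCA, 7.51% TGACGT and 8.3% TTCNNNGAA.

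Markers of the labelled cell type were the brightest: the mean log2 intensity of 8 hepatocyte markers lay between 9.32 and 12.07 over the arrays. The means for markers of Kupffer, endothelial, stellate, bile duct and lymphoid cells lay between 4.44 and 6.02. Most of these markers still passed the filter: 7 of 8 Kupffer, 7 of 7 endothelial, 7 of 8 stellate, 4 of 5 bile duct and 3 of 5 lymphoid ones. Those that did not pass were Timd4, Lrat, Cftr, Ptprc and Nkg7. In such bulk samples fewer cells of a type and less RNA per cell cannot be told apart. A spiked labelling control set some arrays apart. Its 3' minus 5' log2 signal lay between 1.22 and 1.48 for unstimulated cells of 0 to 4 h (10 arrays) and between 2.62 and 3.72 for all others (50 arrays), so contrasts with unstimulated cells at 0.5, 2 and 4 h cross this divide and contrasts between stimuli do not. For those early contrasts a class step is given per gene: how much more unstimulated cells gained between 4 and 8 h than the 3 stimulated arms did on average. A positive step has the sign of an early excess in stimulated cells. Its median size over all genes was 0.15 log2 units and 5% of genes exceeded 0.50 in size, while a gene's own response also enters it. The hybridisation control bioB separated other groups. At 0.5 to 4 h its log2 signal was 8.49 to 8.83 on the unstimulated arrays (0 h included), 6.44 to 8.69 under HGF, 7.17 to 7.35 under IL-6 and 5.80 to 6.36 under both. At 8 to 32 h it was 8.40 to 8.77 on unstimulated arrays, 6.03 to 7.10 under HGF, 5.55 to 7.30 under IL-6 and 5.48 to 5.95 under both. IL-6 and HGF overlapped in it in both ranges of hours, as did the combination and IL-6 at 8 to 32 h and HGF and unstimulated cells at 0.5 to 4 h, and all other contrasts between arms cross a gap in this control. No sample label names a batch, so labelling class and labelling divide stand only for the split in the 3' minus 5' signal. The part of either control in the differences was not tested.

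**Figure D1:**
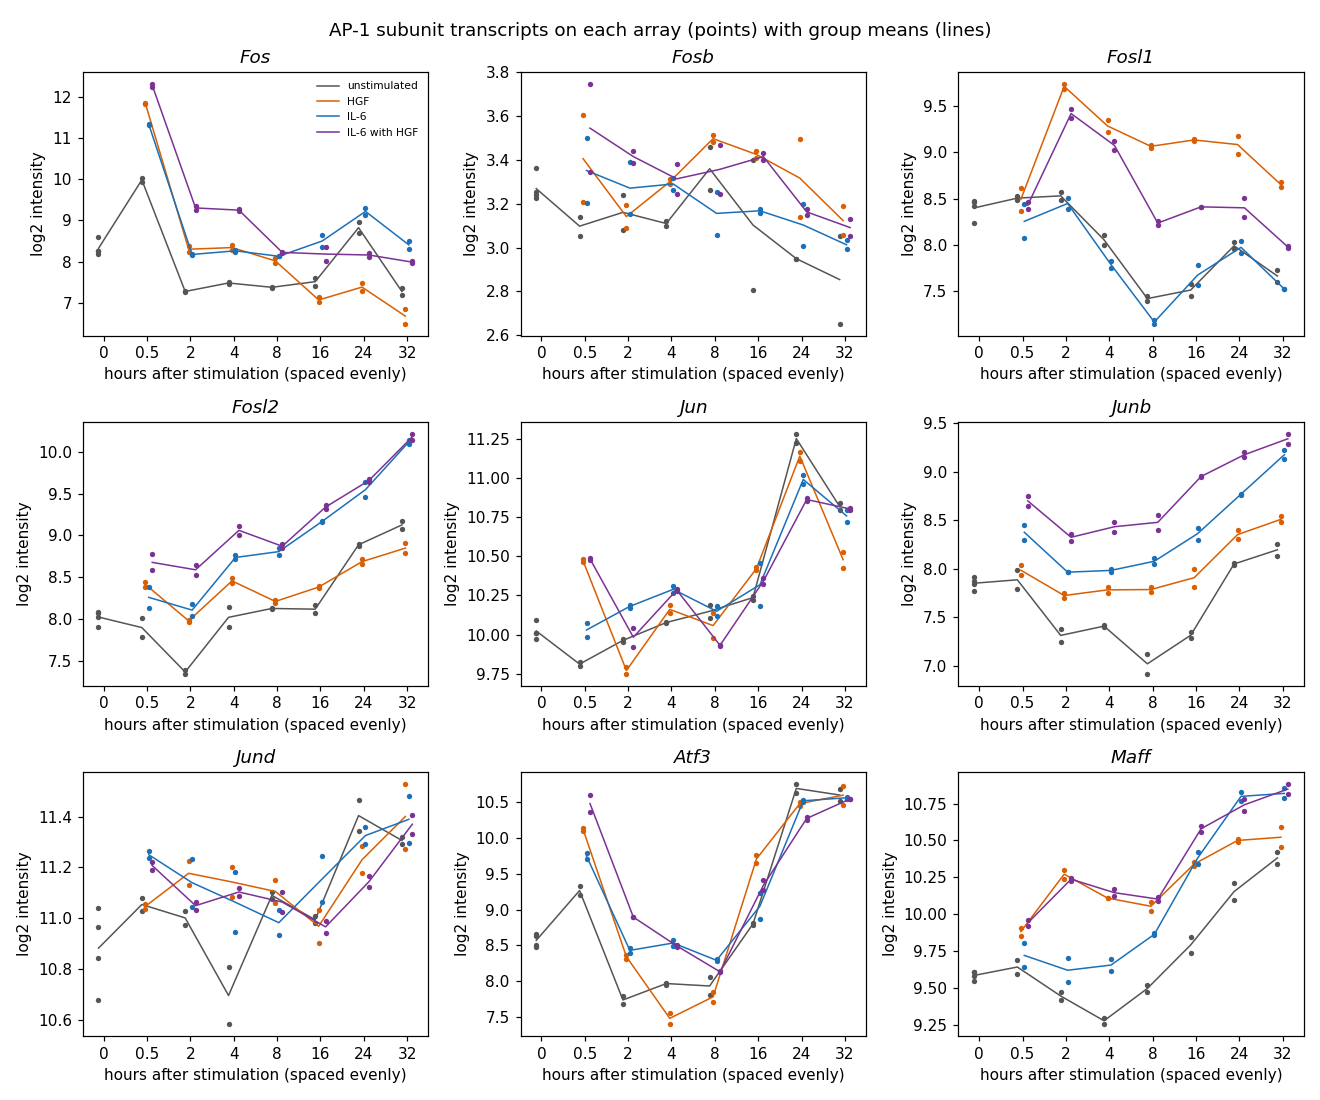
Log2 intensity of the 9 AP-1 genes (vertical axes, 1 panel per gene, each with its own range) against hours after stimulation (horizontal axis, time points spaced evenly) in unstimulated cells and under HGF, IL-6 or both; points are arrays and lines join group means. Fos and Atf3 are high at 0.5 h in all arms, and Fosl1 stays high under HGF. Fosl2 and Junb climb late in all arms and are then highest in the arms with IL-6, and Fosb stays between 2.65 and 3.75 throughout.

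Fos, the prototype immediate early gene, was highest at 0.5 h in every arm, unstimulated cells included. Its log2 intensity was 8.24, 8.26, 8.60 and 8.18 on the 4 arrays of 0 h. At 0.5 h it was 9.94 and 10.03 in unstimulated cells, 11.33 and 11.35 under IL-6, 11.84 and 11.87 under HGF and 12.33 and 12.26 under both. The 4 arms did not overlap at that hour and stood in this order. Unstimulated cells alone had thus gained 1.67 over 0 h (SE 0.09, adjusted p = 1.2e-17).

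Against unstimulated cells of 0.5 h, Fos was 1.35 higher with IL-6 (2.55-fold), 1.87 with HGF (3.65-fold) and 2.30 with both (4.94-fold; SE 0.11 each), beside a class step of 0.39. Within the labelling class, HGF exceeded IL-6 by 0.52 (adjusted p = 0.00967) and the combination exceeded IL-6 by 0.95 (adjusted p = 8.1e-08). The combination stood 0.44 above HGF alone, which missed the threshold (adjusted p = 0.0606).

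At 2 and 4 h Fos separated the combination from the single stimuli. It was at 7.28 and 7.26 in unstimulated cells at 2 h, at 8.37 and 8.22 under HGF, at 8.15 and 8.19 under IL-6 and at 9.36 and 9.25 under both. The combination exceeded HGF by 1.01 and IL-6 by 1.13 at 2 h, and by 0.91 and 0.99 at 4 h (adjusted p at most 9.57e-09). HGF and IL-6 alone did not part at these hours, with differences of -0.13 and -0.08 that missed the threshold.

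Late in the course the stimuli moved Fos in opposite directions. At 24 h it was 8.69 and 8.96 in unstimulated cells, 7.27 and 7.48 under HGF, 9.31 and 9.13 under IL-6 and 8.20 and 8.12 under both, without overlap between any of the arms. HGF lay below unstimulated cells by 0.45 at 16 h, 1.45 at 24 h and 0.60 at 32 h, and IL-6 lay above them by 0.99, 0.40 and 1.13. IL-6 therefore exceeded HGF by 1.84 at 24 h (3.59-fold, adjusted p = 7.58e-19), and the combination lay between them.

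Fosb, the FOS family gene closest to Fos in its known early induction, gave no signal above the filter. Its log2 intensity ranged from 2.65 to 3.75 over the 60 arrays, while the 40th percentile of an array lay between 4.28 and 4.40. Its highest array was a combination array of 0.5 h (3.75), whose partner was at 3.34. No level or change is given for it, since a probe set this dim has only an upper bound.

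Fosl1 (FRA1), a FOS family gene whose product lacks the strong activation domain of FOS and that is known for lasting induction by ERK signalling, followed HGF and not IL-6. At 0.5 h all arrays lay between 8.07 and 8.61, with both IL-6 arrays below both unstimulated ones. At 2 h Fosl1 was 8.49 and 8.57 in unstimulated cells, 8.39 and 8.50 under IL-6, 9.68 and 9.74 under HGF and 9.37 and 9.47 under both. By 8 h the values were 7.45 and 7.40 unstimulated, 7.19 and 7.15 under IL-6, 9.05 and 9.08 under HGF and 8.26 and 8.21 under both. By this brighter probe set HGF and the combination were above the other arms at both hours, with HGF highest.

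HGF raised Fosl1 by 1.18 at 2 h and 1.64 at 8 h (3.12-fold, SE 0.09, adjusted p = 2.26e-19), and still by 0.99 at 32 h. Unstimulated cells themselves were 0.98 lower at 8 h than at 0 h. IL-6 left Fosl1 below unstimulated cells by 0.25 at 0.5 h, 0.27 at 4 h and 0.25 at 8 h, and the 4 other hours missed the threshold. Added to HGF, IL-6 lowered Fosl1 by 0.83 at 8 h (adjusted p = 4.32e-10), 0.72 at 16 h and 0.67 at 32 h.

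The dimmer probe set of Fosl1 also put HGF above unstimulated cells from 8 h on, while its differences of 0.12 at 2 h and 0.28 at 4 h missed the threshold. Its log2 intensity at 8 h was 4.89 and 4.95 in unstimulated cells, 6.16 and 6.09 under HGF and 4.90 and 4.68 under IL-6, so HGF stood 1.20 higher than unstimulated cells. At 0.5 h it put HGF -0.98 and IL-6 -1.23 against unstimulated cells, where the brighter probe set gave -0.01 and -0.25. It put IL-6 at -0.76 at 2 h and -0.88 at 4 h, where the brighter probe set gave -0.08 and -0.27. It put the combination at -0.20 at 2 h and -0.09 at 32 h, where the brighter probe set gave 0.89 and 0.31. The class step of the dimmer probe set was -0.74, against -0.08 for the brighter probe set. Between IL-6 and HGF, where no labelling divide is crossed, the probe sets gave -1.34 and -1.89 at 8 h.

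Fosl2 (FRA2), which like Fosl1 encodes a FOS protein without the strong activation domain, followed IL-6 and climbed to the end of the course. At 32 h it was 9.07 and 9.18 in unstimulated cells, 8.79 and 8.91 under HGF, 10.09 and 10.15 under IL-6 and 10.15 and 10.22 under both. The arrays with IL-6 stood together above all others, and those with HGF alone stood lowest. IL-6 cells had gained 1.86 since 0.5 h (3.64-fold), and HGF cells 0.43. Unstimulated cells rose as well, from a mean of 7.90 at 0.5 h to 9.13 at 32 h, and the combination rose from 8.68 to 10.18.

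Against unstimulated cells, IL-6 raised Fosl2 by 0.74 at 2 h, 1.05 at 16 h (SE 0.08, adjusted p = 2.94e-15) and 1.00 at 32 h. HGF raised it by 0.52 at 0.5 h and 0.61 at 2 h, beside a class step of 0.23, and left it 0.28 below unstimulated cells at 32 h. The combination exceeded IL-6 alone by 0.42, 0.48 and 0.32 at 0.5, 2 and 4 h, and by at most 0.17 afterwards, which missed the threshold. The dimmer Fosl2 probe set did not show this: IL-6 stood 0.29 above unstimulated cells at 16 h and 0.13 at 32 h, and missed the threshold at every hour. Statements on Fosl2 are therefore those of 1 of its 2 probe sets.

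**Figure D2:**
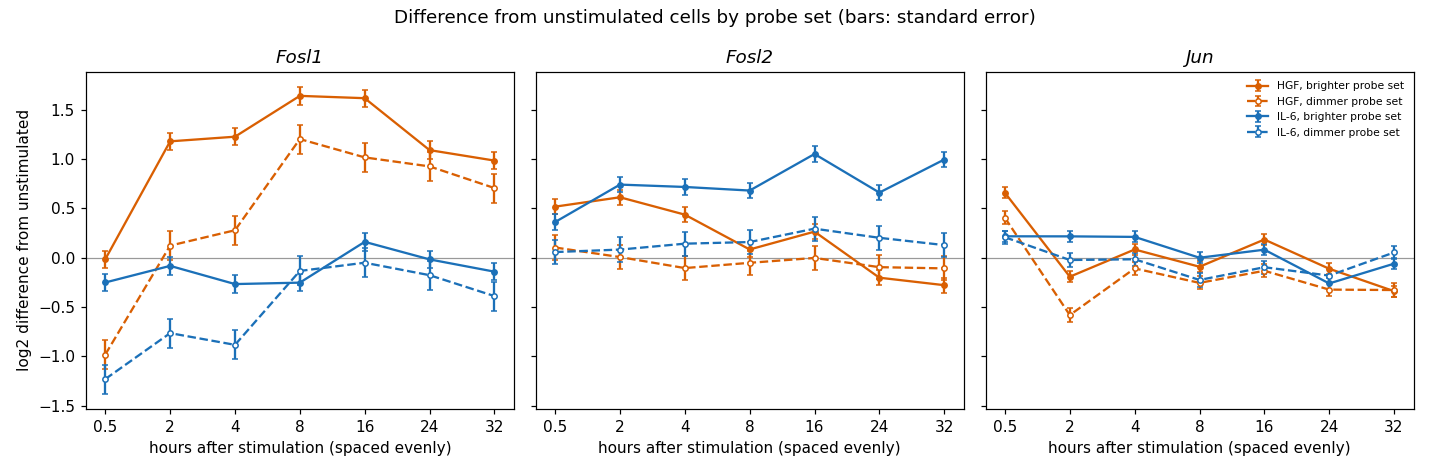
Log2 difference from unstimulated cells (vertical axis, bars are SE) against hours after stimulation (evenly spaced) for the brighter (solid) and dimmer (dashed) probe sets of Fosl1, Fosl2 and Jun under HGF and IL-6. The Fosl1 probe sets part at 0.5 to 4 h and run in parallel from 8 h, while the dimmer Fosl2 probe set stays within 0.30 of 0.

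Jun, whose product is the classical partner of FOS, moved little with the stimuli and more with time. At 0.5 h it was 9.82 and 9.80 in unstimulated cells, 9.99 and 10.07 under IL-6, 10.46 and 10.48 under HGF and 10.49 and 10.48 under both. HGF and the combination lay together above IL-6, which stood above unstimulated cells. HGF raised Jun by 0.66 (1.58-fold, SE 0.05, adjusted p = 2.93e-12) and IL-6 by 0.22, beside a class step of 0.27. Between the stimuli, HGF exceeded IL-6 by 0.44 (adjusted p = 4.12e-07).

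By 2 h the order had turned, with Jun at 9.75 and 9.79 under HGF and 10.17 and 10.19 under IL-6, a difference of 0.41 (adjusted p = 2.38e-07). All arms were highest at 24 h, when Jun was 11.28 and 11.22 in unstimulated cells, 11.17 and 11.11 under HGF, 11.02 and 10.96 under IL-6 and 10.87 and 10.85 under both. Unstimulated cells had gained 1.23 over 0 h (2.34-fold, adjusted p = 3.44e-26). The combination was 0.39 and IL-6 0.26 below them at that hour. The dimmer Jun probe set also gave HGF above unstimulated cells at 0.5 h (0.40) and IL-6 above HGF at 2 h (0.56), but at 16 h HGF stood at -0.13 by it and at 0.18 by the brighter one.

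Junb, which encodes a JUN protein of weaker activity that is an established early target of IL-6 signalling, was raised by each stimulus and most by both. At 16 h it was 7.35 and 7.28 in unstimulated cells, 7.81 and 8.00 under HGF, 8.42 and 8.30 under IL-6 and 8.95 and 8.95 under both, with no overlap between arms. HGF raised it by 0.59, IL-6 by 1.05 and the combination by 1.63 (3.1-fold, SE 0.07, adjusted p = 2.67e-23).

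IL-6 and the combination passed the single-hour test for Junb at every hour and HGF from 2 h on. At 0.5 h Junb was 7.98 and 7.79 in unstimulated cells, 7.93 and 8.03 under HGF, 8.30 and 8.45 under IL-6 and 8.75 and 8.65 under both, so that IL-6 already exceeded HGF by 0.39 (adjusted p = 0.00179). The class step of Junb was -0.44, opposite in sign to these early differences. Unstimulated cells dipped to 6.92 and 7.12 at 8 h, 0.83 below 0 h, and had passed the starting level by 32 h (8.26 and 8.13).

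Jund, the JUN gene known for steady expression in resting cells, differed little between arms at most hours and rose late in unstimulated culture. Unstimulated cells stood 0.52 over 0 h at 24 h (1.44-fold, single-hour adjusted p = 1.88e-08) and 0.42 at 32 h. Of the 28 group means of Jund after 0 h, 27 lay between 10.97 and 11.40, and that of unstimulated cells at 4 h was 10.70. It exceeded unstimulated cells at 4 h by 0.45 under HGF, 0.37 under IL-6 and 0.41 under both, when unstimulated cells were at 10.58 and 10.81. These 3 differences share the same unstimulated arrays, and the class step of Jund was 0.45. Over 8 to 32 h alone Jund passed the F-test in none of the 3 comparisons with unstimulated cells (adjusted p = 0.315 for HGF, 0.236 for IL-6 and 0.0735 for both), although the combination was 0.26 below them at 24 h by the single-hour test.

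Atf3, a stress-induced gene of the ATF family whose product pairs with JUN proteins, had an early peak, a trough and a late plateau. At 0.5 h it was 9.33 and 9.21 in unstimulated cells, 9.79 and 9.71 under IL-6, 10.10 and 10.15 under HGF and 10.60 and 10.37 under both, the same order as Fos and again without overlap. IL-6 raised it by 0.48, HGF by 0.86 and the combination by 1.22 (2.33-fold, SE 0.09), beside a class step of 0.07. Within the labelling class the combination exceeded HGF by 0.36 (adjusted p = 0.0456) and HGF exceeded IL-6 by 0.38 (adjusted p = 0.0248).

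HGF then crossed unstimulated cells and came back. At 4 h Atf3 was 7.40 and 7.56 under HGF and 8.50 and 8.57 under IL-6, with unstimulated cells at 7.98 and 7.95 between them. HGF was thus 0.49 below unstimulated cells and 1.05 below IL-6 (adjusted p = 1.53e-13). At 16 h HGF was the highest arm (9.76 and 9.66), 0.91 above unstimulated cells at 8.78 and 8.82 and 0.66 above IL-6. At 24 and 32 h all arms lay between 10.26 and 10.76, and unstimulated cells stood 2.13 over 0 h at 24 h (4.37-fold, adjusted p = 9.46e-28).

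Maff encodes a small MAF protein, which has a leucine zipper but no activation domain of its own. HGF raised it at every hour, most at 2 and 4 h, and IL-6 from 2 h on, most at 24 h. At 4 h it was 9.26 and 9.30 in unstimulated cells, 9.69 and 9.62 under IL-6, 10.11 and 10.11 under HGF and 10.17 and 10.12 under both. HGF and the combination lay close together on every array and above IL-6. At 24 h it was 10.21 and 10.10 unstimulated, 10.51 and 10.49 under HGF, 10.83 and 10.77 under IL-6 and 10.70 and 10.78 under both, so that IL-6 had joined the combination above HGF.

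In differences, HGF raised Maff by 0.82 at 2 h and 0.83 at 4 h (SE 0.05, class step 0.18), by 0.55 at 16 h and by 0.35 at 24 h. IL-6 raised it by 0.17 at 2 h, 0.38 at 4 h, 0.59 at 16 h and 0.64 at 24 h. HGF exceeded IL-6 by 0.65 at 2 h (adjusted p = 5.33e-13), and IL-6 exceeded HGF by 0.30 at 24 h (adjusted p = 1.68e-05). At 2 to 8 h the combination lay within 0.05 of HGF, and at 24 and 32 h within 0.06 of IL-6. These differences missed the threshold.

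**Figure D3:**
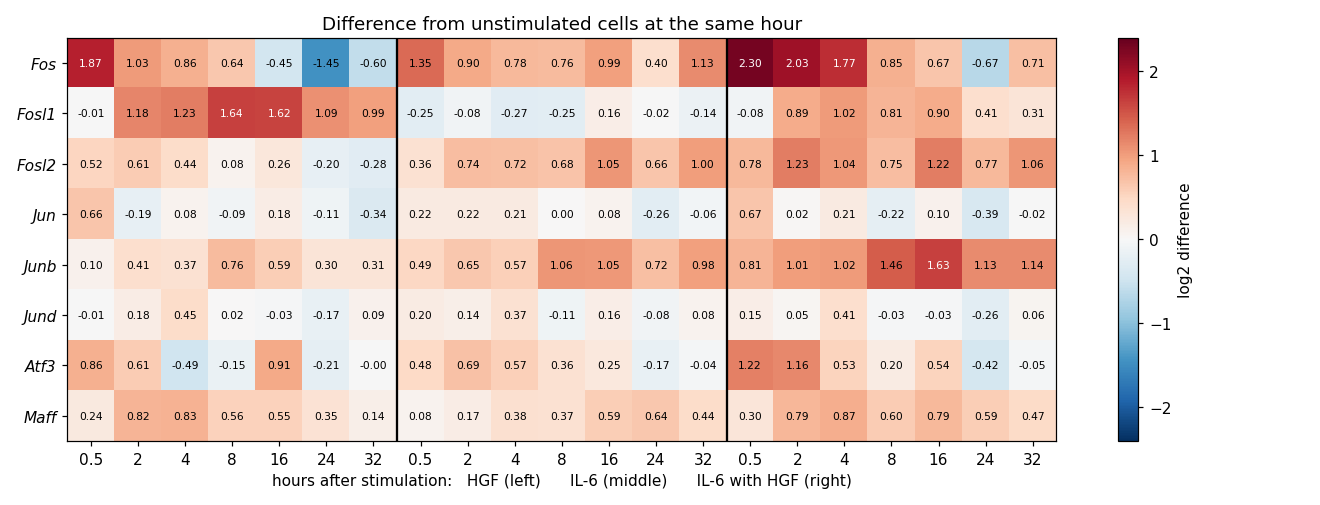
Log2 difference from unstimulated cells at the same hour for the 8 AP-1 genes that passed the filter (rows), at 7 hours under HGF, IL-6 and IL-6 with HGF (columns, 3 blocks); red is higher, blue is lower, and each cell prints its value. Fos turns from 1.87 at 0.5 h to -1.45 at 24 h under HGF, and Junb is above 0 in every column.

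Counted over the whole course by an F-test on the 7 hours, all 8 genes tested differed from unstimulated cells under HGF, IL-6 and the combination. The share of all tested genes called was 62.6% for HGF, 55.1% for IL-6 and 68.0% for the combination, so a call alone sets these genes little apart. Taking each gene's sign where its difference peaked, 8 were higher under HGF (29.8% of all genes), 6 under IL-6 (23.4%) and 8 under the combination (31.3%). The other 2, Fosl1 and Jun, were lower under IL-6, at -0.27 and -0.26 (31.7% of all genes were lower). The median of the largest differences was 0.80 under HGF, 0.67 under IL-6 and 1.12 under both, while over all genes the median size was 0.33, 0.29 and 0.36. Over 8 to 32 h alone 7 of 8 were called in each of these 3 comparisons, against 55.1%, 42.0% and 57.2% of all genes. Under HGF, Fos, Fosl2 and Jun were then lower.

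By single hours most genes were higher under the combination at 4 h, namely all 8 (16.5% of all genes). At 24 h 4 were higher, Fosl1, Fosl2, Junb and Maff (18.3%), and the other 4 lower (17.4%). The contrast at 4 h crosses the labelling divide, and the Jund difference of 0.41 stood beside a class step of 0.45. The dimmer probe sets of Fosl1, Fosl2 and Jun gave -0.0082, 0.20 and -0.14 at 4 h and missed the threshold. That of Jund gave 0.12 and also missed it. Its mean log2 intensity was 4.22, and it lay above the array's 40th percentile on only 14 arrays. A probe set this dim cannot check the brighter one.

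Contrasts between stimuli at 0.5 h stay within the labelling class, although those with the combination cross the bioB gap, and they called few genes. Whether IL-6 and HGF overlap in bioB at 0.5 h alone was not examined, since its ranges were taken over 0.5 to 4 h. IL-6 and HGF differed in 0.338% of all genes at that hour, and in 4 of the 8 AP-1 genes: Fos, Jun and Atf3 were lower (0.207% of all genes) and Junb was higher (0.131%) under IL-6. The combination differed from HGF in 0.296% of genes and in 2 of the 8, Junb and Atf3, which were higher (0.255%). Against IL-6 it differed in 4.62% of genes and in 6 of the 8, all higher (3.49%), Fosl1 and Jund being the exceptions. Over all hours, 7 of 8 were called between IL-6 and HGF (51.2% of all genes), between the combination and HGF (41.6%) and between the combination and IL-6 (44.1%), Jund being the exception in each. Between IL-6 and HGF, Jund passed (adjusted p = 0.0326 to 0.0418) on leaving out replicate 1 or 2 of HGF at 32 h, replicate 1 of IL-6 at 16 h, replicate 2 of IL-6 at 4 h or replicate 3 of 0 h. With the replicate number added to the fit as a block, Jund passed the F-test there (adjusted p = 0.00144) and between the combination and IL-6 (0.00774).

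Whether both stimuli together gave the sum of their single differences was asked by the interaction: from the combination's difference to unstimulated cells, the HGF and IL-6 differences of that hour were subtracted. These are log2 differences, so the sum stands for the product of the single folds. A shortfall or an excess holds for this scale only, and additivity of the intensities themselves was not tested. Fos at 0.5 h fell short of the sum by 0.92 (SE 0.15, F-test adjusted p = 2.58e-05), at 2 and 4 h it was within 0.13 of it, and at 8 h it fell short by 0.55. Fosl1 fell short by 0.88 at 16 h (SE 0.12, F-test adjusted p = 4.34e-09) and also passed at 8, 24 and 32 h. Maff fell short by 0.32 to 0.40 at 4 to 24 h (F-test adjusted p = 1.06e-07). Atf3 exceeded the sum by 0.45 at 4 h and fell short by 0.62 at 16 h, and Jun exceeded it by 0.38 at 32 h. Junb at 16 h, its highest difference, was within 0.01 of the sum.

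All 8 genes passed the interaction F-test, against 33.6% of all genes. Before 8 h the interaction crosses the labelling divide through its unstimulated arrays, and over 8 to 32 h alone 7 of 8 passed (19.7% of all genes), Jund being the exception (adjusted p = 0.708). For 3 of them the call rested on single arrays. The call for Fosl2 (0.34 at 32 h, adjusted p = 0.0314) was lost on leaving out any 1 of 8 arrays: replicate 1 of HGF at 24 or 32 h or of IL-6 at 32 h, or replicate 2 of IL-6 at 24 h, of the combination at 24 or 32 h or of unstimulated cells at 24 or 32 h (adjusted p = 0.056 to 0.0819). That for Junb (-0.36 at 8 h, adjusted p = 0.0375) was lost without any 1 of 12: replicate 1 of any arm at 0.5 h, of HGF, the combination or unstimulated cells at 8 h, or replicate 2 of HGF or IL-6 at 8 h or of IL-6, the combination or unstimulated cells at 32 h (0.0518 to 0.149). That for Jund (-0.41 at 4 h, adjusted p = 0.0407) was lost without any 1 of 15: replicate 2 of HGF at 2, 4 or 16 h, of IL-6 at 2 or 4 h, of the combination at 2, 4 or 16 h or of unstimulated cells at 16 h, or replicate 1 of the combination at 2, 4 or 32 h or of unstimulated cells at 2, 4 or 32 h (0.0508 to 0.162).

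**Figure D4:**
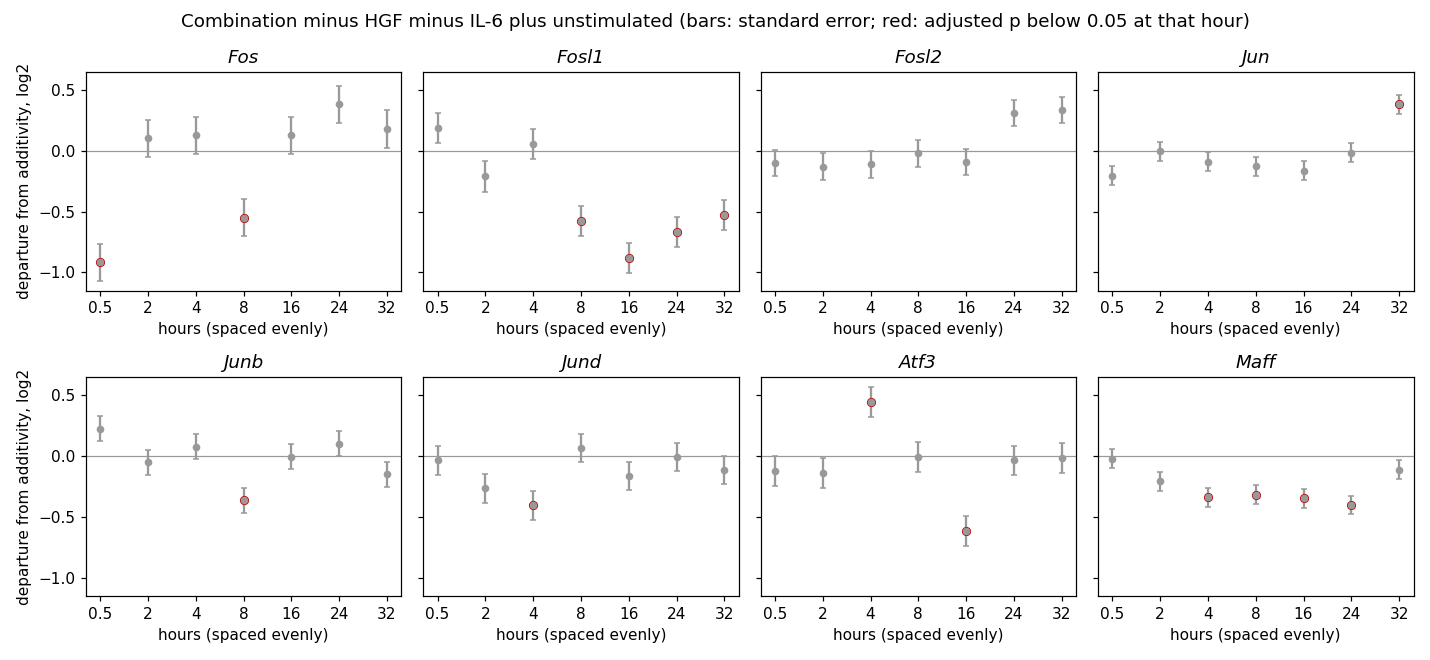
Departure of the combination from the sum of the HGF and IL-6 differences (vertical axis, log2, bars are SE) against hours (evenly spaced) for the 8 tested AP-1 genes. Points in red passed the single-hour test. Values below 0 fall short of the sum, as for Fos at 0.5 h (-0.92) and Fosl1 from 8 to 32 h, and Atf3 lies above 0 at 4 h (0.45) and below at 16 h (-0.62).

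The genes also changed with time in culture, without any stimulus. All 8 differed among the unstimulated hours (75.0% of all genes did). At 2 h 5 of them were below 0 h (6.28% of all genes) and none above. At 32 h 6 were above 0 h (35.0% of all genes) and 2, Fos and Fosl1, below (32.7%). At 32 h Atf3 stood 2.04 and Fosl2 1.10 above 0 h. Differences of 8 h and later from 0 h cross the labelling divide.

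Other basic leucine zipper genes, regulators and targets of AP-1 were taken from lists written from general knowledge. Of all genes 29.8% were higher and 32.8% lower under HGF, 23.4% and 31.7% under IL-6, and 31.3% and 36.7% under both. Of 22 tested bZIP partners, 10 were higher and 7 lower under HGF, 8 and 8 under IL-6, and 10 and 8 under both. Bach1, a heme-sensing repressor that pairs with small MAF proteins, had the smallest adjusted p of the list in all 3: it was 0.75 higher with HGF, 0.89 with IL-6 and 1.44 with both at 2 h (class step 0.49). Creb3l3 was lower at 16 h, at -0.75 with IL-6 and -0.95 with both. The median of the list's largest differences was 0.21, -0.14 and -0.01, with -0.08, -0.10 and -0.14 over all genes.

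Of 22 tested regulators, 12 were higher and 9 lower under HGF, 12 and 7 under IL-6, and 17 and 4 under both, with medians of 0.23, 0.18 and 0.41. Zfp36, which encodes a protein that speeds the decay of AU-rich messages such as that of Fos, was 2.08 higher with IL-6 and 2.45 with both at 0.5 h (class step -0.40). Map2k3, a kinase above p38, was 0.63 higher with HGF at 8 h, and Map3k8 was 1.24 higher with IL-6 at 24 h. Map3k5 was lower with HGF at 24 h (-0.49) but higher with both at 2 h (0.68, class step 0.62). Map2k2 was lower with IL-6 at 4 h (-0.42, class step -0.34).

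Of 18 tested targets, 11 were higher and 3 lower under HGF, 5 and 4 under IL-6, and 11 and 4 under both, with medians of 0.61, 0.25 and 0.39. The adhesion receptor gene Cd44 was 1.22 higher with HGF at 16 h, and Hbegf, which encodes a ligand of the EGF receptor, 1.84 higher at 2 h (class step 0.41). The protease inhibitor gene Timp1 was 2.69 higher with IL-6 at 32 h and 3.08 with both at 24 h, and the metallothionein gene Mt2 was 0.81 higher with IL-6 at 32 h. Ccl2 was lower with IL-6 at 4 h (-1.01, class step -0.20).

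The genes whose 29 group means ran most nearly in parallel differed from member to member. These correlations are descriptions: the groups share culture time and labelling class. For Fos the nearest were the immediate early genes Egr2 (r = 0.90), Zfp36 (0.86) and Ier2 (0.85), and for Fosl1 Rsl1d1 (0.87), Il1rn (0.84) and Psme3 (0.81). Fosl2 ran with Pik3c2a (0.94), Pwwp3b (0.93) and Usp12 (0.92), and Maff with Ier5 (0.96), Garre1 (0.96) and Nrip1 (0.95). Atf3 ran with Zfp639 (0.91), Myc (0.91) and Zfp612 (0.91), and Junb with the NF-kappaB regulator gene Nfkbiz (0.86), Rbm48 (0.86) and Ccdc71l (0.86). The nearest to Jun were Zfp51 (0.89), Taf15 (0.88) and Zfp11 (0.88), and to Jund Zc3h18 (0.85), Ccnl1 (0.83) and Bicd2 (0.83).

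Among the members themselves, Fosl2 and Junb were the closest pair (r = 0.87), followed by Fosl2 with Maff (0.83) and Junb with Maff (0.80). Fos stood apart, with r between -0.12 and 0.24 to the other 7, and so did Fosl1, with r between -0.30 and 0.11.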

How the data were processed

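Expression was measured on 60 Affymetrix Mouse430_2 arrays. The deposited table holds log2 intensity values of 45101 probe sets. The authors' summarisation and scaling steps are not given in the sources used here, and array medians of 4.88 to 4.97 led to their use without rescaling. Triplicates are mentioned in the series text; 2 arrays per group, and 4 at 0 h, were analysed here. No pair of arrays was identical, and their number limits the precision. A gene was tested when, on 2 or more arrays, its brightest probe set lay above that array's 40th percentile.

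A mean per group (29 groups) was fitted to all arrays in R 4.3.3 by limma 3.58.1, using eBayes with trend and 31 residual degrees of freedom. Comparisons were moderated F-tests over matched hours, adjusted by Benjamini-Hochberg over 14513 genes at a threshold of 0.05; single-hour tests were adjusted over genes within hour and comparison. Differences are log2. Same-numbered arrays did not deviate together in the median over pairs of groups, so the main fit used no replicate block. Settings varied were quantile normalization, the filter, the choice of probe set, the arms fitted, the block, the variance model, the hours and each array left out. Genes named are the 9 members, list genes among the 4 with the smallest adjusted p in the comparison, and the 3 most correlated genes per member. Members and lists were chosen with earlier results of these data known.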

Additional observations from a re-analysis of the deposited data

Results flagged for a closer look

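The interaction at the hour of its largest size is listed for each tested gene, because the log2 difference made by a stimulus there differed with the other stimulus present. It was -0.92 for Fos at 0.5 h, -0.88 for Fosl1 at 16 h, -0.62 for Atf3 at 16 h, -0.40 for Maff at 24 h and 0.38 for Jun at 32 h (log2, F-test adjusted p at most 0.000711). It was 0.34 for Fosl2 at 32 h, -0.36 for Junb at 8 h and -0.41 for Jund at 4 h, with F-test adjusted p between 0.0314 and 0.0407. These last 3 calls are the ones lost without single arrays, which are named beside the interaction results. The values of Fos and Jund lie at hours where unstimulated cells belong to another labelling class, whose part was not tested.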

How the results depend on the processing

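The number of AP-1 genes called and the number of all genes called kept within 1.5 times under every setting tried, except that the interaction over 8 to 32 h only called 2862 genes in place of 4872. Leaving out each of the 60 arrays in turn gave 6 to 8 AP-1 genes for the interaction, 7 to 8 for IL-6 against HGF, and 236 to 249 single-hour calls in place of 242, and moved no other count of AP-1 genes. Without the IL-6 array of 24 h that lay apart in the labelling control no F-test call of an AP-1 gene changed. Restricting the hours to 8 to 32 h moved the largest difference to another hour and turned its sign for 11 values. Against unstimulated cells these were, under HGF, Fos (-1.45 at 24 h), Fosl2 (-0.28 at 32 h), Jun (-0.34 at 32 h) and Bach1 (-0.26 at 32 h), and under both stimuli Jun (-0.39 at 24 h). For the combination against HGF it was Atf3 (-0.37 at 16 h), and against IL-6 Fos (-1.06 at 24 h) and Jun (-0.22 at 8 h). For IL-6 against HGF these were Jun (0.28 at 32 h), Atf3 (-0.66 at 16 h) and Maff (0.30 at 24 h). With its dimmer probe set, Fosl1 under both stimuli turned to -0.0082 at 4 h. The cause was not tested.

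The interaction call for Jund was also lost without the variance trend, with robust estimation, with quantile normalization and with the mean over probe sets (adjusted p = 0.112, 0.0959, 0.062 and 0.218), and that for Fosl2 without the trend and with the mean over probe sets (0.0578 and 0.156). With the mean over probe sets Jund lost its calls against unstimulated cells (0.179 for HGF, 0.169 for IL-6, 0.0526 for both). For Jund that mean includes a probe set that lay above the array's 40th percentile on only 14 arrays. Over 8 to 32 h Fosl2 lost its call between the combination and IL-6 (0.198). The replicate number as a block added calls for Jund in IL-6 against HGF (adjusted p = 0.00144) and in the combination against IL-6 (0.00774) and changed no other call of an AP-1 gene. Over 378 pairs of groups, the deviations of arrays that share a number had correlations of -0.27 to 0.25 (median -4e-04), and 31 pairs exceeded 0.1. Whether the numbers pair the arrays within single arms or hours cannot be told from this. With 2 arrays per group, spread between animals is not known.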
